A study of Homo sapiens with 10 samples.

Results

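The inositol polyphosphate 5-phosphatases are a family of 10 genes, all of which had a row in the deposited expression table of 58302 gene IDs, where they were found by symbol. They are INPPL1 (which encodes SHIP2), INPP5D (SHIP1), INPP5A, INPP5B, INPP5E, INPP5J, INPP5K, OCRL, SYNJ1 and SYNJ2. Their RNA was measured in KYSE-410, an established human cell line of esophageal squamous cell carcinoma, exposed to compounds that the study names as pharmacological inhibitors of SHIP2. In the first arm, 3 libraries came from cells given K149 at 2 µM for 48 h and 3 from cells given the solvent DMSO (0.1%). In the second arm, 2 libraries came from cells given AS1949490 at 20 µM for 48 h and 2 from their own DMSO (0.1%) cells. All libraries are of 1 line, and no label says whether a group's libraries are separate cultures, so the p-values measure the spread between these libraries, which may be technical.

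Phosphoinositides are membrane lipids whose inositol ring carries phosphates at several positions, and each pattern of phosphates recruits its own proteins. The 5-phosphatases share a catalytic domain that removes the phosphate at the D5 position of these lipids or of soluble inositol phosphates. SHIP2 converts PIP3, the lipid product of PI 3-kinase, into another signalling lipid, PI(3,4)P2, and its relatives act on different substrates in different membranes.

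INPPL1 and OCRL were higher with both compounds while INPP5K was higher with K149 and lower with AS1949490, so the RefSeq promoter windows of these genes are shown (GRCh38.p14, 250 bases before to 50 bases after the start site). The INPPL1 window is chr11:72223313-72223612 on the plus strand, that of OCRL is chrX:129540009-129540308 on the plus strand, and that of INPP5K is chr17:1516563-1516862 on the minus strand. Capitals mark matches on either strand to the Sp1 motif GGGCGG or the ETS motif CCGGAA.
INPPL1: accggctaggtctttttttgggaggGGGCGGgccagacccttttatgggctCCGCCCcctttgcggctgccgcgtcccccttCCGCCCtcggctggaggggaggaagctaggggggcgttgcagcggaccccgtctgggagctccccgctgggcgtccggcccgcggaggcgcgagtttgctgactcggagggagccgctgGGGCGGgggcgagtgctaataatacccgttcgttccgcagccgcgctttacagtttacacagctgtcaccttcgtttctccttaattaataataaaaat
OCRL: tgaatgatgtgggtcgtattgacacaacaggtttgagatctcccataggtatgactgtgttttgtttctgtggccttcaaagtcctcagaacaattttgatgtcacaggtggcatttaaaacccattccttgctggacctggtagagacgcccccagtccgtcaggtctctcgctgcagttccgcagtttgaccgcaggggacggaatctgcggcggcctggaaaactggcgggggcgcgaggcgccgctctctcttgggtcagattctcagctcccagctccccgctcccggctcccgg
INPP5K: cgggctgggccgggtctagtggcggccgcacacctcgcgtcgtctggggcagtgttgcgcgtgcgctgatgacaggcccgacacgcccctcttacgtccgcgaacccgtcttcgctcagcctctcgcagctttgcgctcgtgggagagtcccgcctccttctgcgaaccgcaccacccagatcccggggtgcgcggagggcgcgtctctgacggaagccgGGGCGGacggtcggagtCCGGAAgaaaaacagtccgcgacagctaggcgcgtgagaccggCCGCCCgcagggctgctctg
The INPPL1 window held 4 Sp1 matches, the INPP5K window held 2 Sp1 matches and 1 ETS match, and the OCRL window held none of the 9 motifs searched. At least 1 Sp1 match stood in 5 of the 8 family promoters that the RefSeq table holds and in 45% of all 35116 promoters. The ETS motif stood in 2 of the 8 and in 17.2% of all. Of the other motifs searched on both strands, CRE (TGACGT) matched SYNJ1 (7.98% of all promoters) and YY1 (AAGATGG) matched INPP5B (5.84%). E-box (CACGTG), forkhead (GTAAACA), E2F (TTGGCGC), NF-Y (CCAAT) and AP-1 (TGANTCA) matched no family window, and stood in 7.26%, 3.42%, 3.04%, 34.6% and 7.71% of all promoters. These matches describe letters and are not measured binding sites. The windows follow RefSeq start sites, which need not match the gene bounds of the annotation used here. The INPPL1 window ends at 72223612, before the annotated gene start at 72223701. The OCRL window begins at 129540009, inside a gene annotated from 129539849. On the minus strand, the INPP5K window reaches up to 1516862, inside a gene annotated up to 1516888. The INPP5D window begins at 233060092, inside a gene annotated from 233059967. The SYNJ1 window (32728345-32728644) lies outside its annotated gene, which ends at 32728048. The SYNJ2 window begins at 158016843, inside a gene annotated from 157981887. Which start sites these cells used was not tested.

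Levels are given in CPM (the reads of a gene, scaled to the same total for every library). The summed level of 10 squamous markers lay between 835 and 1574 CPM, with KRT14 and SOX2 at no more than 1.45 CPM in any library. The sum was mostly CDH1 (group means from 497 to 1086 CPM), which epithelia in general express. With K149, 7 of the 10 fell and 2 rose (median log2 fold -0.66), beside 30.6% of all genes tested that fell and 35.8% that rose. With AS1949490 3 fell and 3 rose, beside 19.5% and 32.1% of all genes. KRT13, a keratin of suprabasal squamous cells chosen here after its values were seen, averaged 415 CPM with DMSO and 12.01 CPM with K149, and 3.40 and 1.17 CPM in the other arm. Of the other cell types' markers, 9 of 10 for blood, 3 of 6 for fibroblasts, 4 of 5 for endothelium and 4 of 6 for neurons stayed below 1 CPM everywhere. Their summed levels differed by arm for fibroblasts (230 to 275 against 38.9 to 46.3 CPM, mostly LUM). Sums with DMSO and with either compound did not overlap for neurons, blood or fibroblasts, nor with K149 for endothelium. For neurons they were 53.1 to 54.8 against 91.6 to 98.8 CPM with K149, mostly SYT1. With AS1949490 the neuron sums were 41.3 to 50.2 against 66.2 to 67.6 CPM. For blood they were 19.8 to 20.3 against 22.6 to 27.3 CPM with K149. With AS1949490 the blood sums were 12.6 to 12.9 against 20.5 to 22.9 CPM. The blood sum was mostly CD68, which shares 85.8% of its exon bases with another gene. Libraries within a group whose reads could be recovered differed beyond sampling noise, if recovered reads are counted reads (chi-square per degree of freedom at least 1.32). The highest value, 9.02, was between the AS1949490-arm DMSO libraries, and reads could not be recovered in replicate 1 of these. That value, and those with K149 replicate 3, where reads could not be recovered either, cannot be set against sampling noise. MALAT1, a nuclear RNA (the higher of the 2 gene IDs that carry this symbol), stood at 704 CPM in K149 replicate 1 against 153 and 148 CPM in the other K149 libraries. The replication and mitosis genes fell in 20 of 20 cases with K149 and 19 of 20 with AS1949490, with median log2 folds of -3.86 and -0.89. Of all genes, 30.6% and 19.5% fell. The part of these features in the results on the 5-phosphatases was not tested. In such bulk RNA, a change in the kinds of cell present and a change in RNA per cell cannot be told apart.

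INPPL1 had the highest level per exon length in the family in all 4 groups. Divided by the length of its annotated exons, its mean level was 17.4 CPM per kilobase in the K149-arm DMSO libraries and 26.6 with K149, and 20.8 in the AS1949490-arm DMSO libraries and 30.4 with AS1949490. Over the 10 libraries, 14.9% of the 17837 genes tested were as high per kilobase as INPPL1, against 35.4% for INPP5A and 78.4% for INPP5J. INPP5A came next after INPPL1 in 3 of the groups, followed by OCRL, and the order of these neighbours was OCRL then INPP5A with AS1949490. The ranges of INPP5A and OCRL overlapped with K149. SYNJ2 followed these in every group, overlapping INPP5K with K149 and INPP5E in the AS1949490-arm DMSO libraries. INPP5B, INPP5J and SYNJ1 filled the low end, between 0.969 and 2.85 CPM per kilobase, and the libraries of SYNJ1 overlapped those of INPP5J, and those of INPP5J overlapped those of INPP5B, in the DMSO cells of the K149 arm. SYNJ1 also overlapped INPP5E with K149 and INPP5K with AS1949490. INPP5D was last everywhere. This order is by annotated exons, and below INPPL1 it changed in places with the longest transcript as length. INPP5A (11.7 CPM per kilobase) then stood above OCRL (11.59) with AS1949490. In the AS1949490-arm DMSO libraries SYNJ2 (9.905) then stood above OCRL (9.781).

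Taken as a share of the summed CPM per kilobase of the 10 genes, INPPL1 made up 34.2% ± 2.01 (SD, n = 3) in the K149-arm DMSO libraries and 40.1% ± 0.801 (n = 3) with K149. In the other arm its share was 34.5% ± 1.45 (SD, n = 2) with DMSO and 43.7% ± 1.22 (n = 2) with AS1949490. In single libraries it lay between 32.0% and 35.9% with DMSO and between 39.5% and 44.6% with either compound, so that the DMSO and compound libraries did not overlap. INPP5A, an enzyme of soluble inositol phosphates, held 16.9% and 14.3% without and with K149, and 19.6% and 13.5% without and with AS1949490. INPP5K held 6.84% and 9.50% without and with K149, and 5.92% and 4.33% without and with AS1949490. The family total was 50.8 ± 1.7 (SD, n = 3) with DMSO and 66.4 ± 2.52 CPM per kilobase (n = 3) with K149, and in the other arm 60.3 ± 1.02 (n = 2) with DMSO and 69.6 ± 1.15 (n = 2) with AS1949490. No test was run on the shares or on the total.

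**Figure D1:**
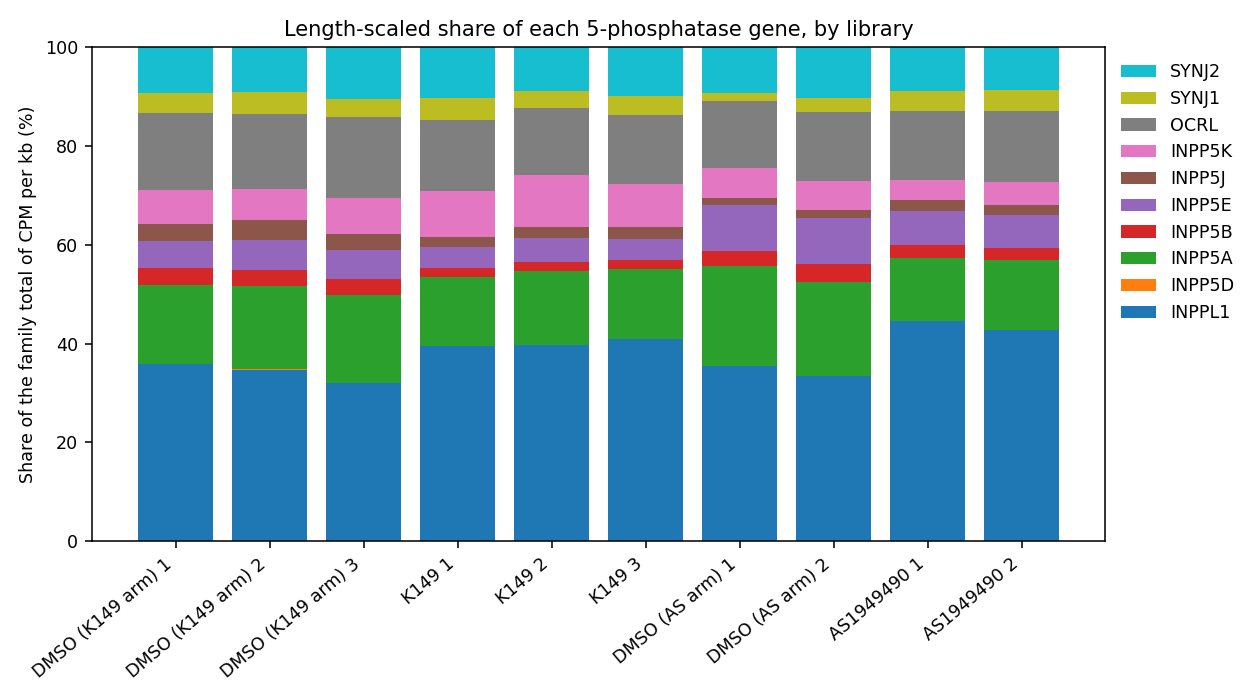
Share of each 5-phosphatase gene in the summed CPM per kilobase of the 10 genes (percent), as 1 stacked bar per library, for the 4 groups. The INPPL1 segment is the tallest in every bar and spans 32.0% to 35.9% in the DMSO libraries and 39.5% to 44.6% in the libraries with a compound.

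Of the 10 genes, 9 passed the filter of a group mean of at least 1 CPM and were tested with limma across all 17837 genes, with an adjusted p (Benjamini-Hochberg) under 0.05 as the call. With K149, 4 of the 9 rose (INPP5K, INPPL1, SYNJ2 and OCRL) and INPP5B fell, beside 66.4% of all genes tested that were called in either direction. Higher calls made up 35.8% and lower calls 30.6% of all genes. The libraries with K149 did not overlap those with DMSO for 6 of the 9 (5 above and 1 below), beside 70.3% of all genes (37.7% above and 32.6% below). With AS1949490, 4 of the 9 rose (SYNJ1, INPPL1, INPP5J and OCRL) and 3 fell (INPP5A, INPP5E and INPP5K), beside 51.6% of all genes called, 32.1% higher and 19.5% lower. The libraries did not overlap for 8 of the 9 (4 above and 4 below), beside 75% of all genes (44.5% above and 30.5% below). The share of the family called, 55.6% with K149 and 77.8% with AS1949490, is over 9 genes. The median log2 fold of the 9 genes was 0.22 with K149 and 0.06 with AS1949490, against 0.04 and 0.08 over all genes.

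Called with both compounds and in the same direction were 2 genes, INPPL1 and OCRL, both higher, a pattern that 20.3% of all genes had. INPP5K rose with K149 and fell with AS1949490, a pattern of 325 genes or 1.82% of those tested. The AS1949490 call behind this pattern was lost in 11 of 23 other settings for INPP5K, and in 5 of 23 for OCRL, against 0 of 23 for INPPL1. SYNJ1, called higher with AS1949490, passed the threshold with K149 in 7 of 23 other settings. INPP5B, called lower with K149, passed it with AS1949490 in 6 of 23. The doses and the DMSO libraries differ between the arms, so the effects were compared only as a difference of the 2 within-arm effects (K149 effect minus AS1949490 effect). That difference was called for 5 of the 9 genes, beside 40.4% of all genes (15.1% higher and 25.3% lower). INPP5K, INPP5A and SYNJ2 were higher and INPP5J and SYNJ1 were lower in it.

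**Figure D2:**
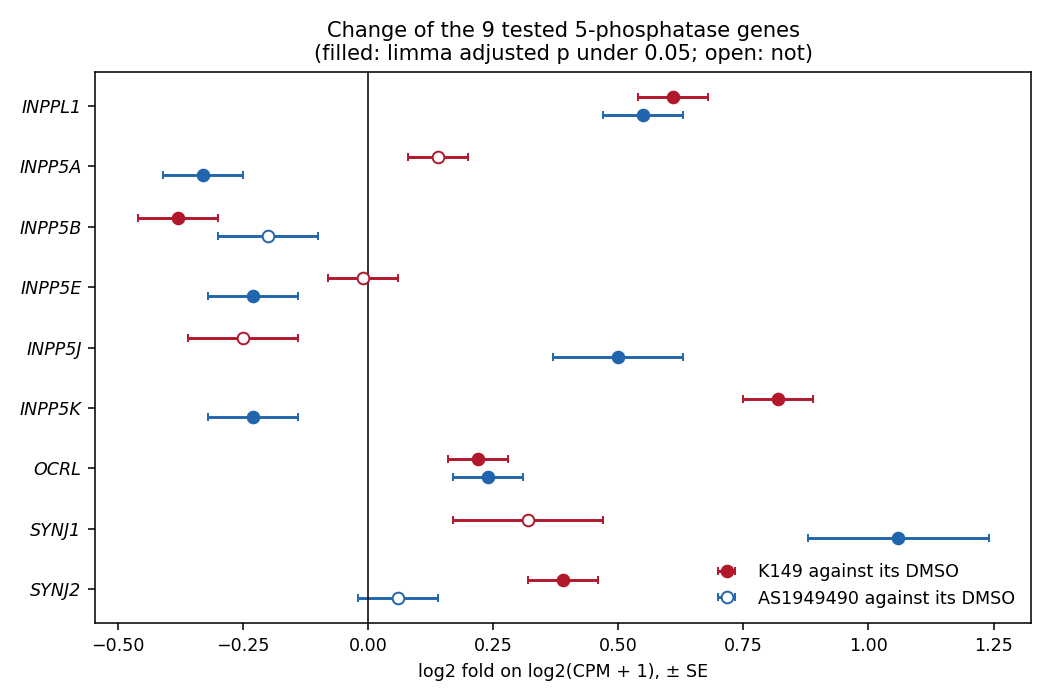
Change of each tested 5-phosphatase gene on the log2(CPM + 1) scale, with bars of ± 1 SE from limma, for K149 against its DMSO and AS1949490 against its DMSO, filled where the adjusted p was under 0.05. INPPL1 lies at 0.61 and 0.55, INPP5K at 0.82 and -0.23, and SYNJ1 at 0.32 and 1.06.

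INPPL1 (ENSG00000165458, chromosome 11, 72223701 to 72239105 on GRCh38, plus strand) encodes SHIP2, the enzyme the compounds are named for. Its level was 119.5, 118 and 102 CPM in the K149-arm DMSO libraries and 169.7, 166 and 185 CPM with K149. It was 141 and 130.0 CPM in the AS1949490-arm DMSO libraries and 205 and 192 CPM with AS1949490. Every library with a compound stood above all DMSO libraries of both arms. With K149 the mean went from 113 ± 9.80 (SD, n = 3) to 174 ± 9.80 CPM (n = 3), a log2 fold of 0.61 ± 0.07 (SE, adjusted p = 2.38e-06). With AS1949490 it went from 136 ± 7.99 (SD, n = 2) to 198 ± 8.79 CPM (n = 2), a log2 fold of 0.55 ± 0.08 (SE, adjusted p = 0.000122). A change at least as large in either direction was seen in 22.9% of all genes with K149 and 19.1% with AS1949490. The difference of the 2 effects was 0.07 ± 0.11 (SE, adjusted p = 0.648), with a 95% interval from -0.16 to 0.29, so a difference of either sign within it cannot be told from none. Of its exon bases, 0.44% overlap another gene.

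INPP5D (ENSG00000168918, chromosome 2) encodes SHIP1, the relative of SHIP2 known from blood cells. It stood at 0.150, 0.250 and 0.150 CPM in the DMSO libraries and 0.050, 0 and 0 CPM in the K149 libraries of the first arm. It stood at 0.10 CPM in both DMSO libraries and at 0.150 and 0 CPM with AS1949490 in the second. In 9 of 10 libraries this was at or under 0.15 CPM, the value of 3 reads where reads could be recovered. The K149 libraries lay below all their DMSO libraries, while the AS1949490 and DMSO libraries of the other arm overlapped. INPP5D did not pass the filter, so it had no test there. With no filter on low values limma called it lower with K149 (adjusted p = 0.011) and did not call it with AS1949490 (adjusted p = 0.787). The K149 call rests on levels of at most 0.250 CPM in every library, and no fold is given at such levels. PTPRC, a general marker of blood cells, reached at most 0.2 CPM, and CD2, a T-cell marker, was at 0 in every library.

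**Figure D3:**
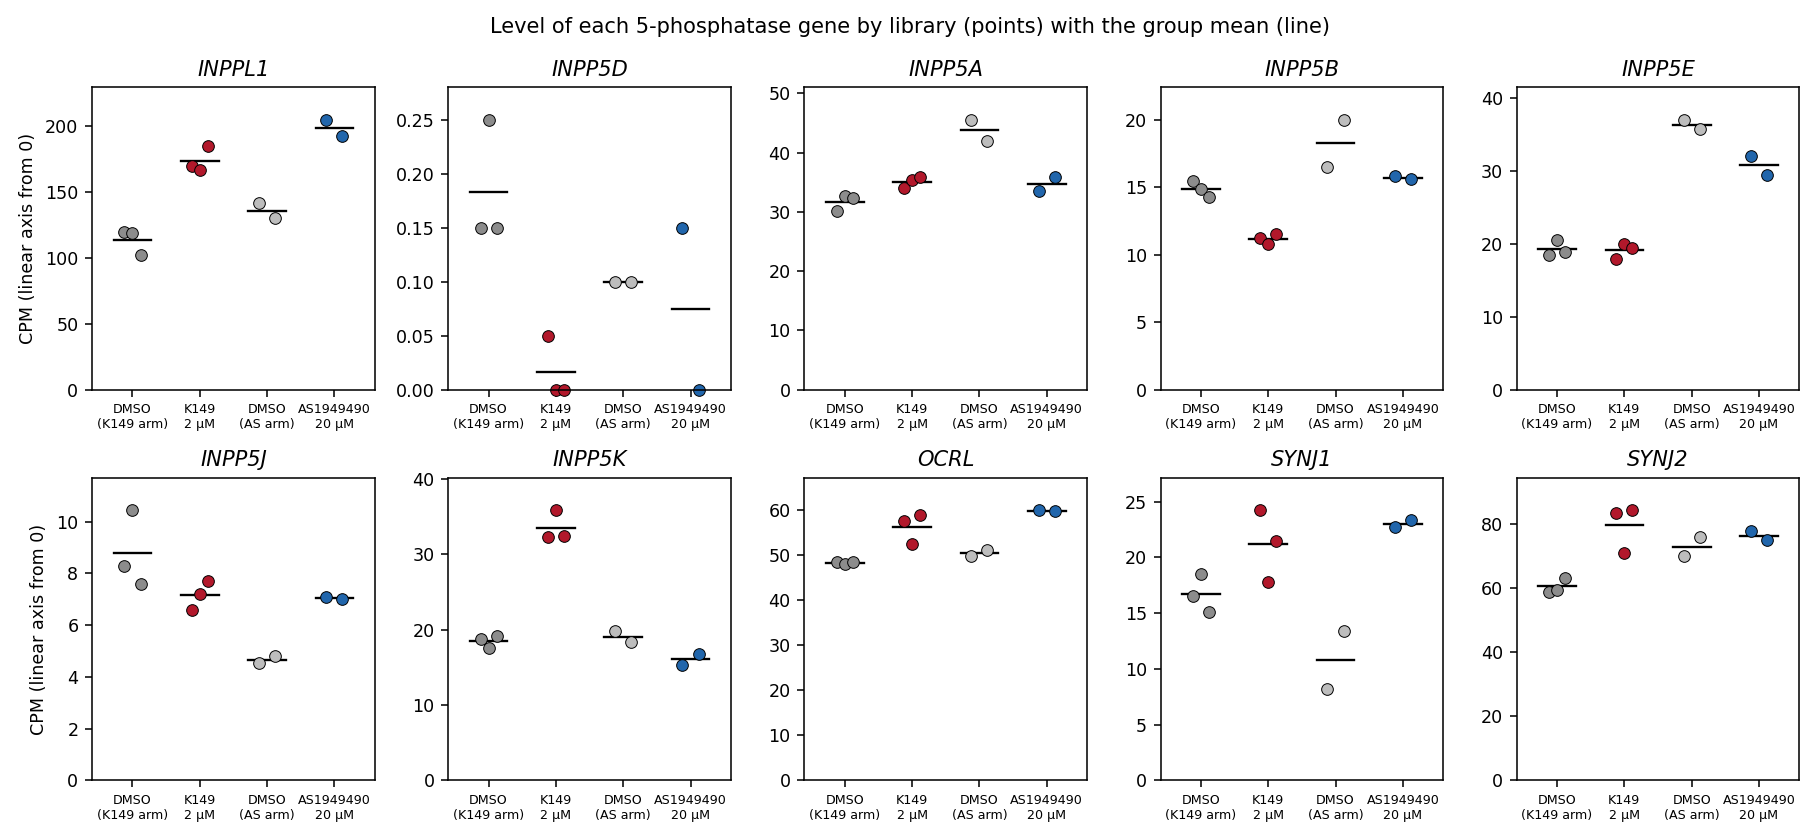
Level of each of the 10 genes in CPM (linear axes from 0, a scale of its own for each gene), with 1 point per library and a bar at the mean of each of the 4 groups. The INPPL1 points with either compound (166 to 205 CPM) lie above all its DMSO points (102 to 141 CPM), and INPP5D stays at or below 0.250 CPM.

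INPP5A (ENSG00000068383, chromosome 10, 132537820 to 132783480, plus strand) removes the 5-phosphate of the soluble messenger IP3 and so ends its calcium signal. It was at 30.2, 32.7 and 32.3 CPM with DMSO and 34.0, 35.4 and 35.9 CPM with K149. In the other arm it was at 45.6 and 41.9 CPM with DMSO and 33.5 and 35.9 CPM with AS1949490. The compound libraries lay above their DMSO libraries in the K149 arm and below them in the AS1949490 arm. The log2 fold with K149 was 0.14 ± 0.06 (SE, adjusted p = 0.0565), not a call, though it passed the threshold in 3 of 23 other settings. With AS1949490 INPP5A fell by 0.33 ± 0.08 on the log2 scale (SE, adjusted p = 0.00275). K149 and AS1949490 effects differed by 0.47 ± 0.10 (SE, adjusted p = 0.00182). The DMSO levels themselves differed, the K149 arm being lower by a log2 fold of -0.45 ± 0.07 (SE, adjusted p = 6.04e-05), one of the calls between the DMSO groups, where 66.2% of all genes were called. Of its exon bases, 8.15% overlap NKX6-2 on the other strand, and whether strand was used in counting is not given in the sources used here.

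OCRL (ENSG00000122126, chromosome X, 129539849 to 129592561, plus strand) acts on PI(4,5)P2 of endosomes and the Golgi and is the gene of Lowe syndrome. It was at 48.5, 48.0 and 48.3 CPM with DMSO and 57.6, 52.5 and 58.8 CPM with K149. It was at 49.9 and 51.1 CPM with DMSO and 59.9 and 59.8 CPM with AS1949490. The 5 libraries with a compound all exceeded the 5 DMSO libraries. OCRL rose by a log2 fold of 0.22 ± 0.06 with K149 (SE, adjusted p = 0.00348) and 0.24 ± 0.07 with AS1949490 (SE, adjusted p = 0.00891), and the difference of effects was -0.03 ± 0.09 (SE, adjusted p = 0.842), with a 95% interval from -0.21 to 0.16. The AS1949490 call was lost with TMM scaling (log2 fold 0.16, adjusted p = 0.068), with median-of-ratios scaling (0.14, adjusted p = 0.105) and without AS1949490 replicate 1 (0.24, adjusted p = 0.0504), and with edgeR (0.15, adjusted p = 0.152) and DESeq2 (0.13, adjusted p = 0.385) on the 8 libraries whose reads could be recovered. These 8 lack replicate 3 of K149 and replicate 1 of the AS1949490-arm DMSO cells, so that DMSO group is 1 library, assumed to vary like the other groups, and the K149 call too was lost there with DESeq2 (0.16, adjusted p = 0.0879).

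INPP5B (ENSG00000204084, chromosome 1, 37860697 to 37947057, minus strand) is the closest relative of OCRL and shares many of its partners. It was at 15.4, 14.9 and 14.2 CPM with DMSO and 11.2, 10.8 and 11.5 CPM with K149, so that the groups did not overlap. In the other arm it was at 16.5 and 20.0 CPM with DMSO and 15.8 and 15.6 CPM with AS1949490. INPP5B fell by 0.38 ± 0.08 on the log2 scale with K149 (SE, adjusted p = 0.000945), while the log2 fold with AS1949490 was -0.20 ± 0.10 (SE, adjusted p = 0.108). The K149 effect minus the AS1949490 effect was not called (-0.18 ± 0.13, SE, adjusted p = 0.284, 95% interval -0.46 to 0.10). The AS1949490 change passed the threshold in 6 of 23 other settings, among them TMM scaling (log2 fold -0.28, adjusted p = 0.0276) and the fit without DMSO replicate 1 of that arm (-0.33, adjusted p = 0.023), while without DMSO replicate 2 it was -0.07 (adjusted p = 0.629). Of its exon bases, 5.39% overlap another gene.

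INPP5K (ENSG00000132376, chromosome 17, 1494571 to 1516888, minus strand), also called SKIP, acts at the endoplasmic reticulum and is known as a brake on insulin signalling in muscle. It was at 18.7, 17.6 and 19.1 CPM with DMSO and 32.3, 35.8 and 32.4 CPM with K149. It was at 19.8 and 18.3 CPM with DMSO and 15.3 and 16.8 CPM with AS1949490. The K149 libraries stood above every other library, and the AS1949490 libraries stood below every other library. With K149, INPP5K rose from 18.5 ± 0.785 (SD, n = 3) to 33.5 ± 2.01 CPM (n = 3), a log2 fold of 0.82 ± 0.07 (SE, adjusted p = 2.56e-07) and the largest of the family in that arm. With AS1949490 it fell by 0.23 ± 0.09 on the log2 scale (SE, adjusted p = 0.0395), a call lost, among other settings, in a fit with the replicate numbers as a block (adjusted p = 0.0843). Without DMSO replicate 1 of that arm the log2 fold was -0.18 (adjusted p = 0.184), and without AS1949490 replicate 1 it was -0.17 (adjusted p = 0.242). The difference of effects was 1.06 ± 0.11 (SE, adjusted p = 7.49e-06), and 5.74% of all genes had one at least as large in either direction. Between the DMSO groups INPP5K differed by -0.04 on the log2 scale (adjusted p = 0.669).

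INPP5E (ENSG00000148384, chromosome 9, 136428619 to 136439823, minus strand) keeps the membrane of the primary cilium low in PI(4,5)P2 and is a gene of Joubert syndrome. It was at 18.5, 20.5 and 18.9 CPM with DMSO and 18.0, 20.0 and 19.4 CPM with K149, and these groups overlapped. It was at 37.0 and 35.7 CPM with DMSO and 32.1 and 29.5 CPM with AS1949490, which did not overlap. The log2 fold with K149 was -0.01 ± 0.07 (SE, adjusted p = 0.9), with a 95% interval from -0.16 to 0.14. With AS1949490 INPP5E fell by 0.23 ± 0.09 on the log2 scale (SE, adjusted p = 0.0339), a call lost in 6 of 23 other settings. Among these were the fits without DMSO replicate 1 (log2 fold -0.21, adjusted p = 0.124), without AS1949490 replicate 2 (-0.18, adjusted p = 0.215) and with the arm alone (adjusted p = 0.0617). Between the effects the difference was 0.22 ± 0.11 (SE, adjusted p = 0.123). All 6 libraries of the K149 arm lay below all 4 of the AS1949490 arm, and the DMSO groups differed by a log2 fold of -0.88 ± 0.08 (SE, adjusted p = 3.22e-07).

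INPP5J (ENSG00000185133, chromosome 22, 31122731 to 31134696, plus strand), a proline-rich member of the family, acts on PIP3 and other inositol substrates. It was at 8.30, 10.4 and 7.60 CPM with DMSO and 6.60, 7.20 and 7.69 CPM with K149, and these groups overlapped. It was at 4.55 and 4.80 CPM with DMSO and 7.09 and 6.99 CPM with AS1949490, which did not overlap. The log2 fold with K149 was -0.25 ± 0.11 (SE, adjusted p = 0.0519), which passed the threshold in 10 of 23 other settings, and with AS1949490 INPP5J rose by 0.50 ± 0.13 (SE, adjusted p = 0.00583). On the 8 libraries with recovered reads this call was lost with edgeR (0.47, adjusted p = 0.0713) and DESeq2 (0.46, adjusted p = 0.205), and that of the difference with DESeq2 (-0.84, adjusted p = 0.0527). K149 minus AS1949490 effects gave -0.76 ± 0.17 (SE, adjusted p = 0.00307). The K149-arm DMSO libraries were higher than those of the other arm by a log2 fold of 0.78 ± 0.12 (SE, adjusted p = 6.83e-05). At levels under 11 CPM the log2(CPM + 1) scale understates such changes: with AS1949490 the ratio of mean CPM was 1.51, against 1.42 on that scale.

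SYNJ1 (ENSG00000159082, chromosome 21, 32628759 to 32728048, minus strand) encodes synaptojanin 1, which carries a SAC phosphatase domain beside the 5-phosphatase and uncoats clathrin-coated vesicles. It was at 16.5, 18.5 and 15.1 CPM with DMSO and 24.2, 17.8 and 21.5 CPM with K149, and these groups overlapped. It was at 8.19 and 13.4 CPM with DMSO and 22.7 and 23.3 CPM with AS1949490. The AS1949490-arm DMSO libraries were the lowest of all 10 and differed from each other more than the AS1949490 libraries did. SYNJ1 rose by a log2 fold of 1.06 ± 0.18 with AS1949490 (SE, adjusted p = 0.000288), the largest fold of the family in either arm, and 2.15% of all genes changed at least as much in that arm. The fold was 0.73 without DMSO replicate 1 and 1.39 without DMSO replicate 2 of that arm. With K149 it was 0.32 ± 0.15 (SE, adjusted p = 0.0687), which passed the threshold in 7 of 23 other settings. Among these was the fit without K149 replicate 2 (0.43, adjusted p = 0.02). The difference of effects was -0.74 ± 0.23 (SE, adjusted p = 0.0198), a call lost in 8 of 22 other settings. Without DMSO replicate 1 of the AS1949490 arm it was -0.42 (adjusted p = 0.0858).

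SYNJ2 (ENSG00000078269, chromosome 6, 157981887 to 158099176, plus strand) encodes synaptojanin 2, the more widely expressed of the pair. It was at 59.0, 59.5 and 63.4 CPM with DMSO and 83.6, 71.1 and 84.4 CPM with K149, so that the groups did not overlap. It was at 70.2 and 75.9 CPM with DMSO and 77.8 and 75.0 CPM with AS1949490, which overlapped. SYNJ2 rose by a log2 fold of 0.39 ± 0.07 with K149 (SE, adjusted p = 0.0002), and the fold with AS1949490 was 0.06 ± 0.08 (SE, adjusted p = 0.542). The difference of effects was 0.32 ± 0.11 (SE, adjusted p = 0.0287), a call lost in 9 of 22 other settings, among them the fits without DMSO replicate 2 of the K149 arm (0.31, adjusted p = 0.0648) and without AS1949490 replicate 2 (0.30, adjusted p = 0.102).

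Between the DMSO groups, which carry the same label treatment, 7 of the 9 tested genes were called, 2 higher (INPP5J and SYNJ1) and 5 lower (INPP5E, INPP5A, INPPL1, SYNJ2 and INPP5B) in the K149 arm than in the AS1949490 arm. Over all genes, 66.2% were called in this comparison (37.1% higher and 29.1% lower). The DMSO groups did not overlap for 8 of the 9 (2 above and 6 below), beside 76.4% of all genes (42.5% above and 33.9% below). INPPL1 was lower by a log2 fold of -0.26 ± 0.07 (SE, adjusted p = 0.00745) and SYNJ2 by -0.26 ± 0.08 (SE, adjusted p = 0.00718). The SYNJ1 difference of 0.62 ± 0.16 (SE, adjusted p = 0.00422) was 0.29 without DMSO replicate 1 of the AS1949490 arm (adjusted p = 0.093). Left without 1 AS1949490-arm DMSO library, INPPL1 lost its call (-0.20 without replicate 1, adjusted p = 0.0622), as did SYNJ2 (-0.21 without replicate 2, adjusted p = 0.054) and INPP5B (-0.14 without replicate 2, adjusted p = 0.234). INPP5B also lost it without DMSO replicate 3 of the K149 arm (-0.25, adjusted p = 0.0511). Arm and library series cannot be told apart. OCRL and INPP5K were not called.

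The genes whose levels ran most like INPPL1 over the 10 libraries, by Pearson's r of log2(CPM + 1) among 11350 genes with a mean of at least 10 CPM, were CAMTA2 (0.986), VPS18 (0.984), HEMK1 (0.983), ZDHHC9 (0.982) and RUBCN (0.980). The libraries fall into 4 groups, so these values reflect group means. VPS18, a subunit of the HOPS tethering complex, had log2 folds of 0.71 with K149 and 0.47 with AS1949490, and RUBCN, a regulator of autophagy, had 0.44 and 0.31. Within the family, r with INPPL1 was 0.938 for OCRL and 0.787 for SYNJ2, and it ranged down to -0.319 for INPP5B.

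The enzymes that make or remove the same lipids were described by lists chosen with earlier results of these data known. Of all genes, 35.8% rose and 30.6% fell with K149 (median log2 fold 0.04). Over the same genes 32.1% rose and 19.5% fell with AS1949490 (median 0.08). Among 18 tested genes listed as phosphatases of the 3- and 4-positions and SAC type, 12 rose and 3 fell with K149. SBF1 and SBF2, inactive relatives of these enzymes, were among those that rose. With AS1949490 11 rose and 7 were not called, and the median log2 folds were 0.22 with K149 and 0.30 with AS1949490. FIG4, a SAC phosphatase that works with PIKFYVE, rose from 30.5 ± 0.815 (SD, n = 3) to 51.2 ± 1.37 CPM (n = 3) with K149 and from 18.0 ± 0.0665 (SD, n = 2) to 34.8 ± 2.01 CPM (n = 2) with AS1949490. TMEM55A, a phosphatase of PI(4,5)P2, rose by a log2 fold of 0.71 ± 0.10 with K149 (SE, adjusted p = 3.67e-05), and INPP4A, a 4-phosphatase of the SHIP2 product PI(3,4)P2, by 0.82 ± 0.07 with AS1949490 (SE, adjusted p = 1.92e-06). TMEM55A also rose by 0.64 with AS1949490, and INPP4A by 0.19 with K149. Here and below, a gene named for 1 compound had one of the largest folds of its list there. It may also have changed with the other compound.

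Of the 12 genes listed as phosphoinositide 4- and 5-kinases, which include VAC14, not itself a kinase, 7 rose and 1 fell with K149. With AS1949490 10 rose, VAC14 among them, and 2 were not called (medians 0.33 with K149 and 0.34 with AS1949490). PIKFYVE, the kinase that makes PI(3,5)P2, rose by 0.77 ± 0.13 with K149 (SE, adjusted p = 0.000139) and 1.14 ± 0.16 with AS1949490 (SE, adjusted p = 7.12e-05). PIP4K2C, a PI5P 4-kinase, rose from 124 ± 1.28 (SD, n = 3) to 201 ± 1.03 CPM (n = 3) with K149 and from 139 ± 1.30 (SD, n = 2) to 233 ± 7.13 CPM (n = 2) with AS1949490. Of 12 tested genes listed as PI 3-kinase subunits, which include the inhibitor PIK3IP1, 9 rose with K149, PIK3IP1 among them, and 3 were not called. With AS1949490 10 rose and 2 were not called (medians 0.35 with K149 and 0.50 with AS1949490). PIK3IP1, an inhibitor of PI 3-kinase, rose by 1.75 ± 0.09 with K149 (SE, adjusted p = 1.5e-09) and PIK3R3, a regulatory subunit, by 1.22 ± 0.06 (SE, adjusted p = 5.36e-10). PIK3C2B, a class II kinase, rose by 1.01 ± 0.09 with AS1949490 (SE, adjusted p = 2.75e-06), and its class II relative PIK3C2A by 0.98 ± 0.21 (SE, adjusted p = 0.00174), which was 0.52 without DMSO replicate 1 of that arm. For the other compound, log2 folds were -0.10 for PIK3IP1 (not called), 0.27 for PIK3R3, 0.32 for PIK3C2B and 0.36 for PIK3C2A (not called).

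The soluble inositol phosphate enzymes were divided, with 6 of 15 higher and 6 lower with K149 and 5 higher and 2 lower with AS1949490 (medians -0.16 and 0.16). IMPA2, an inositol monophosphatase, fell by 1.29 ± 0.08 on the log2 scale with K149 (SE, adjusted p = 6.3e-09), and MINPP1, a phosphatase of higher inositol phosphates, rose by 0.95 ± 0.06 (SE, adjusted p = 1.34e-08). With AS1949490 IPMK rose by 0.91 ± 0.17 (SE, adjusted p = 0.000526) and PPIP5K2 by 0.80 ± 0.15 (SE, adjusted p = 0.000636), kinases of inositol phosphates that stood at 0.59 and 0.49 without DMSO replicate 1 of that arm. Under the other compound, log2 folds were -0.03 for IMPA2 (not called), 0.74 for MINPP1, 0.68 for IPMK and 0.33 for PPIP5K2. Of 15 phospholipase C and IP3 receptor genes, 7 rose and 6 fell with K149 and 10 rose and 2 fell with AS1949490 (medians 0.07 and 0.46). ITPR1, an IP3 receptor of the endoplasmic reticulum, rose by 1.01 ± 0.13 with K149 (SE, adjusted p = 9.33e-06) and 0.94 ± 0.16 with AS1949490 (SE, adjusted p = 0.000267). PLCG2, a phospholipase C, rose by 0.83 ± 0.08 with K149 (SE, adjusted p = 4.62e-07), and ITPR2 by 0.77 ± 0.14 with AS1949490 (SE, adjusted p = 0.000458). Both also rose with the other compound, PLCG2 by 0.55 with AS1949490 and ITPR2 by 0.75 with K149.

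Of 18 tested adaptors and partners of the SHIP proteins, 10 rose and 2 fell with K149 and 11 rose and 4 fell with AS1949490 (medians 0.22 and 0.18). SORBS3, a vinexin adaptor, fell by 0.76 ± 0.07 (SE, adjusted p = 2.33e-07) and ARAP3, a GTPase-activating protein that binds SHIP2, by 0.53 ± 0.06 (SE, adjusted p = 2.19e-06) on the log2 scale with K149. EPHA2, a receptor that SHIP2 binds through its SAM domain, fell by 0.87 ± 0.07 with AS1949490 (SE, adjusted p = 1.13e-06), and ITSN2, an endocytic scaffold, rose by 0.74 ± 0.12 (SE, adjusted p = 0.000245). Their log2 folds with K149 were 0.27 and 0.39. Those of SORBS3 and ARAP3 with AS1949490 were -0.32 and -0.12, the last not called. Of 17 tested readers of PIP3 and PI(3,4)P2, 10 rose and 2 fell with K149 and 11 rose and 3 fell with AS1949490 (medians 0.33 and 0.27). GAB2, a docking protein, rose by 0.80 ± 0.15 (SE, adjusted p = 0.00038) and SH3PXD2B, a podosome scaffold, by 0.74 ± 0.08 (SE, adjusted p = 3.55e-06) with K149. GAB1, a docking protein of receptor tyrosine kinases, rose by 1.14 ± 0.13 (SE, adjusted p = 1.23e-05) and SH3PXD2A by 0.93 ± 0.12 (SE, adjusted p = 3.71e-05) with AS1949490. Mean levels with DMSO and AS1949490 were 6.05 and 11.2 CPM for GAB2, and 25.5 and 49.0 CPM for SH3PXD2B. Those with DMSO and K149 were 13.9 and 19.7 CPM for GAB1, and 4.83 and 3.95 CPM for SH3PXD2A.

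Of 21 tested endocytic, Rab and ciliary partners of OCRL, INPP5B, INPP5E and the synaptojanins, 10 rose and 5 fell with K149, and 4 rose and 4 fell with AS1949490 (medians 0.16 and 0.00). RAB8A, a ciliary Rab that shares 41.7% of its exon bases with another gene and is therefore uncertain, fell by 0.66 ± 0.05 on the log2 scale with K149 (SE, adjusted p = 5.53e-08), and AP2A1, a clathrin adaptor subunit, rose by 0.45 ± 0.05 (SE, adjusted p = 2.97e-06). Other listed genes share more, among them PIK3R2 (87.2%), RAPH1 (75.8%), IPPK (72%) and MTMR3 (65.3%), so the list counts carry the same uncertainty. CLTC, the clathrin heavy chain, rose from 422 ± 40.6 (SD, n = 2) to 638 ± 11.9 CPM (n = 2) with AS1949490, and BIN1, an amphiphysin, fell by 0.44 ± 0.11 on the log2 scale (SE, adjusted p = 0.00429). All of these lists stood beside 66.4% of all genes called with K149 (35.8% higher and 30.6% lower). The share with AS1949490 was 51.6% (32.1% higher and 19.5% lower).

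**Figure D4:**
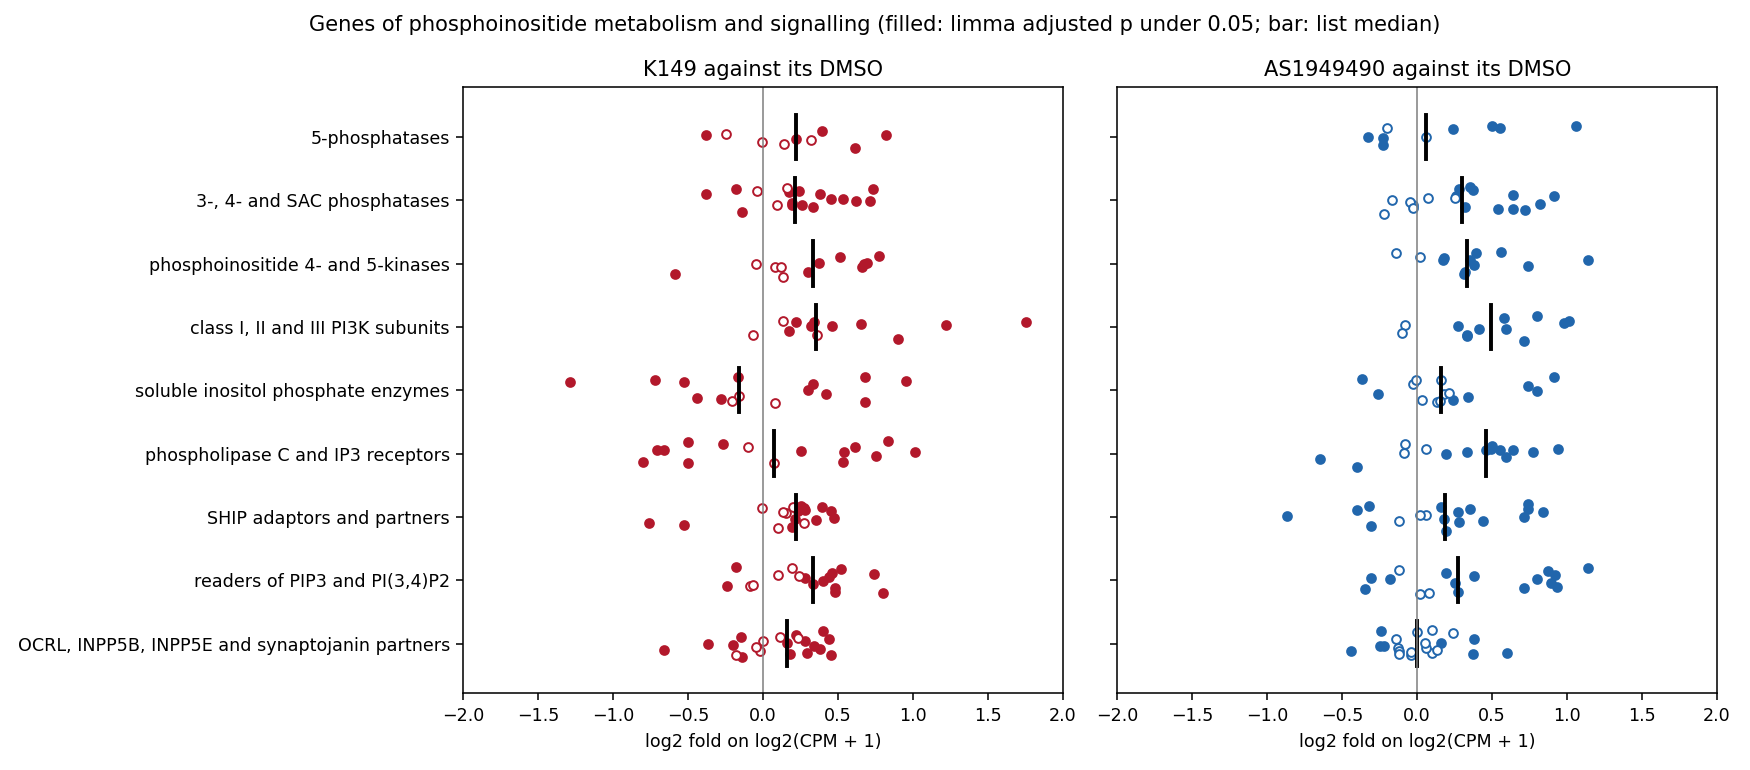
Log2 change of every tested gene of the inositide lists and the 5-phosphatases with K149 and with AS1949490, 1 point per gene, filled where the adjusted p was under 0.05, with a bar at the median of each list. The list medians lie between -0.16 and 0.50.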

How the data were processed

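From KYSE-410 cells, total RNA was taken up on columns with DNase treatment and made into libraries with the Ovation Solo system, per the labels' protocols. STAR 2.5.3a, HTSeq and the hg38 build are named in the submitters' processing notes, with annotation, counting rule and strand use not given in the sources used here. In 1 table, the authors deposited CPM for 58302 gene IDs in 10 libraries. In 8 libraries the CPM values advanced in steps of about 0.05 CPM (100% of those under 50 CPM lay within 0.05 of a step), from which reads were recovered on a common total near 20.01 M. The other 2 (replicate 3 of K149 and replicate 1 of the AS1949490-arm DMSO cells) had no value at the lowest step, so edgeR 4.0.16 and DESeq2 1.42.0 were run only as alternatives on those 8, which leaves 1 DMSO library in the AS1949490 arm, and called 11668 and 9771 genes with K149 and 7513 and 5435 with AS1949490. In the 8 libraries 1 step, taken as 1 read, is worth about 0.05 CPM, and the floor of 3 reads covers counting error only. That a step is 1 read was inferred from the values and was not tested. Totals this alike do not tell whether the values had been brought to a common total before they were deposited.

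The 17837 genes whose mean reached 1 CPM in any group were tested with limma 3.58.1 in R 4.3.3 on log2(CPM + 1), with a variance trend, all 10 libraries and 4 group means. P-values were adjusted by Benjamini-Hochberg over all genes, with a call under 0.05. Levels were compared between genes per kilobase of annotated exons (GENCODE 29, 58039 IDs matched). Titles gave the groups, but DMSO replicate 3 of the first arm was placed by its library name, since its title names none. In the second arm, titles and library names number the replicates differently. Named genes were all 10 family members, the 2 called genes with the largest fold in each list and arm (mean at least 5 CPM), and the 5 genes most like INPPL1. The members and lists were chosen with earlier results of these data known. The fits were also run on simulated counts with the same relative spread for every gene and few genes changed, unlike these data. That run checks the code and not the results given here. Alternatives were the pseudocount, the filter, TMM and median-of-ratios scaling, a replicate block, each arm alone, no variance trend, the longest transcript as length, and leaving out each library, with 2 added after seeing the data (a crossed block and limma on the 8 libraries).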

Additional observations from a re-analysis of the deposited data

Results flagged for a closer look

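The effects of the compounds differed by a test of the difference itself, K149 effect minus AS1949490 effect (limma on log2(CPM + 1), Benjamini-Hochberg over all genes), for 5 of the 9 tested 5-phosphatases. The difference was 1.06 for INPP5K, 0.47 for INPP5A, 0.32 for SYNJ2, -0.76 for INPP5J and -0.74 for SYNJ1, beside 40.4% of all genes called. Doses, DMSO libraries and library series differ between the arms, so the compound and the arm cannot be told apart in these differences. INPP5K had the K149 libraries above and the AS1949490 libraries below every DMSO library. INPP5J stood at 6.60 to 7.69 CPM with either compound, while its DMSO libraries stood at 7.60 to 10.4 CPM in the K149 arm and 4.55 to 4.80 CPM in the other.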

How the results depend on the processing

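Of 792 refitted folds of the family, 699 kept their direction and side of the threshold, 51 lost the call, 27 gained it and 15 changed sign. INPPL1, INPP5K, INPP5B and SYNJ2 with K149, INPPL1, INPP5A and SYNJ1 with AS1949490, and the INPP5K and INPP5A differences kept their calls in every setting run. The sign changes were all of values that were not called. They were INPP5E with K149 (0.03 without DMSO replicate 2 or K149 replicate 1), SYNJ2 with AS1949490 (-0.02 with TMM, -0.04 with median-of-ratios, -0.07 with edgeR, -0.09 with DESeq2), the OCRL difference (0.02 with TMM, 0.05 with median-of-ratios, 0.02 without K149 replicate 2, 0.01 with edgeR, 0.03 with DESeq2), the INPPL1 difference (-0.01 without DMSO replicate 3 of the K149 arm, -0.04 on 8 libraries) and INPP5K between the DMSO groups (0.01 without DMSO replicate 1 of the AS1949490 arm or on 8 libraries). Leaving out single libraries moved the INPPL1 difference between -0.01 and 0.13 and the OCRL difference between -0.06 and 0.02. The cause was not tested.

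Limma on all 10 libraries called 7 members and 9205 genes with AS1949490 and 5 and 7207 in the difference. On the 8 libraries with recovered reads limma called 6 and 7719, and 4 and 6596, while DESeq2 called 4 and 5435, and 3 and 4461. No filter on low values left 3 members in the difference. Leaving out each library in turn gave 5 to 7 members with K149, 5 to 7 with AS1949490, 3 to 5 in the difference and 5 to 7 between the DMSO groups. The fits without DMSO replicate 2 of the K149 arm, AS1949490 replicate 1 or AS1949490 replicate 2 gave the 3. Over all genes these fits called 10845 to 12301 with K149, 6883 to 9739 with AS1949490, 5499 to 7425 in the difference and 10499 to 12220 between the DMSO groups. Between same-numbered libraries of the K149 arm the r of deviations from group means was 0.101, 0.046 and -0.012. So few libraries cannot decide whether they were paired. A replicate block gave 5 members and 11479 genes with K149, 6 and 8579 with AS1949490, and 5 and 6408 in the difference, the INPP5K call with AS1949490 being the member call it ended. Crossing the numbers of the AS1949490 arm (r = -0.242 as labelled) gave 7 members and 12122 genes with K149 and 7 and 9534 with AS1949490. With 2 libraries per group every pair there had an r of 0.242 or -0.242, so this r does not tell which were paired. The crossing also parts the libraries that share a number in their library names. With the longest transcript as length, INPPL1 held 33.9%, 39.6%, 34.0% and 43.5% of the family total in the 4 groups. The order below INPPL1 changed in places, among them that of OCRL, INPP5A and SYNJ2 in the AS1949490 arm. Values below 1 CPM rest on few reads, which limits INPP5D.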
